A study of Homo sapiens with 6 samples.

Results

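Small nucleolar RNA (snoRNA) genes were examined as a group, namely all genes that GENCODE v29 types as snoRNA and that had at least 1 transcript in the deposited count table. There were 282 such genes among the 18768 genes listed, out of 943 snoRNA genes in the annotation. HCT116, an established human colorectal cancer cell line, received, by transient transfection, either an siRNA that targets the long non-coding RNA AC010789.1 (si-AC010789.1) or a control siRNA without this target (siRNA-NC), with 3 replicates in each group and no other treatment named. The replicates were called biological repeats from different generations of cells, and paired-end TruSeq libraries made from total RNA were sequenced. The paper reports mRNA expression profiles from them. How well such libraries recover RNAs as short as snoRNAs was not tested. The counts below therefore describe the libraries and not the levels of mature snoRNAs in the cells. The comparison asks which transcripts differ after knockdown of AC010789.1. The level of AC010789.1 itself was not analysed here, and the labels are thus taken as given.

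SnoRNAs guide the chemical modification of other RNAs, above all ribosomal RNA, in the nucleolus. C/D snoRNAs (symbols beginning with SNORD) are bound by fibrillarin and direct 2'-O-methylation, whereas H/ACA snoRNAs (SNORA) are bound by dyskerin and direct pseudouridylation, and a few members, such as U3 and U8, act in the cleavage of the ribosomal RNA precursor. In human cells most are cut out of the introns of host genes, many of which encode ribosomal proteins or translation factors, while other hosts encode no protein.

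The depth of a library was 11277222 to 13443866 counts. Before TMM scaling, 1 count was thus worth 0.0744 to 0.0887 CPM (counts per 1000000 counts of the library). On the same scale 3 counts, the upper limit that a count of 0 allows, were worth 0.223 to 0.266 CPM. These limits cover counting error only. The levels given below are in CPM after TMM scaling of the library total. The epithelial markers KRT8 and KRT18 were abundant in both groups (mean 717 and 394 CPM in siRNA-NC, 533 and 418 CPM after si-AC010789.1). EPCAM was low at 3.61 and 4.96 CPM, and CDH17 was near 0 at 0.0499 and 0.0581 CPM. These 4 of 7 epithelial markers were listed, whereas KRT19, VIL1 and CDX2 were not. The listed markers summed to 983 to 1226 CPM with siRNA-NC and 799 to 1039 CPM after si-AC010789.1, nearly all of it KRT8 and KRT18. Of 5 markers of other cell types only the collagen gene COL1A1 was listed, at a mean of 43.2 and 44.4 CPM. All values below come from bulk RNA, in which fewer cells and less RNA per cell cannot be told apart.

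The following members carry results below: SNORD16 and SNORD5, whose counts went from 1 to more than 20 between libraries of one group; SNORA8, SNORD58B, SNORD104 and SNORA4, which were steady; and SNORA22, whose groups did not overlap, at low counts. Each is shown 5′ to 3′ as in the GENCODE v29 transcript sequences (GRCh38). Capitals mark the first GATG, the core of the C box, and the last CTGA, the D box, in C/D snoRNAs, and the ACA near the 3′ end in H/ACA snoRNAs.
SNORD16: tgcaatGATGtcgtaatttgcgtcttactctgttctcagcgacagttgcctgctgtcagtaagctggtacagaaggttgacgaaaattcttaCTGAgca
SNORD5: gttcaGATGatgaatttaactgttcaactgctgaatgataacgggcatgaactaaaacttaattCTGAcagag
SNORA8: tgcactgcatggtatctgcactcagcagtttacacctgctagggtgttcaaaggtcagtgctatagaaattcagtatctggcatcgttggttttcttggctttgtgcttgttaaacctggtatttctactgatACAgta
SNORD58B: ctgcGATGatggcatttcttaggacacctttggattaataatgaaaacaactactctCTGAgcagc
SNORD104: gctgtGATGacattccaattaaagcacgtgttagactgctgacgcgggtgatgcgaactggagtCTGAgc
SNORA4: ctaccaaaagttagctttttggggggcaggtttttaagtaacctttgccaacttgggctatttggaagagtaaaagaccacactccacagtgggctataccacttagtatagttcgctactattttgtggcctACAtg
SNORA22: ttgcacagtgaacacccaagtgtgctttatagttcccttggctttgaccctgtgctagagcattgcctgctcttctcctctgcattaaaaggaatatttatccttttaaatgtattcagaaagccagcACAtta

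SNORD16 lies at chr15:66502812-66502910, minus strand, within an intron of RPL4 that some of its transcripts retain. SNORA18, SNORD5 (chr11:93733228-93733300, minus strand) and SNORA8 (chr11:93732361-93732499, minus strand) are neighbours in TAF1D, which encodes a subunit of a transcription factor of RNA polymerase I. SNORD58B (chr18:49491664-49491729, minus strand) is in RPL17, SNORD104 (chr17:64146083-64146152, plus strand) in the non-coding host SNHG25, SNORA4 (chr3:186787612-186787749, plus strand) in the translation factor gene EIF4A2 and SNORA22 (chr7:65755526-65755659, plus strand) in the pseudogene CCT6P1.

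The box letters were searched on the sense strand of every snoRNA gene, with GATG in the first 18 bases, CTGA in the last 25 bases and ACA in the last 10 bases. Among the 139 SNORD genes listed, 92.8% held GATG, 95.0% held CTGA and 90.6% held both, against 86.7%, 94.2% and 83.5% of all 278 annotated SNORD genes. An ACA near the end was found in 89.8% of the 98 SNORA genes listed and in 89.8% of all 147 annotated, but in 8.6% of the SNORD genes listed. The symbols therefore matched the sequence class in most members. A match of these short letters is a description, and it is not evidence of a working box.

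The share of genes listed differed between the classes, but less so without 1 multicopy cluster. Of 147 annotated SNORA genes 98 were listed (66.7%, 95% Wilson interval 58.7 to 73.8%), compared with 139 of 278 SNORD genes (interval 44.2 to 55.8%). Without the imprinted cluster on chromosome 15, of whose 83 genes 20 were listed, 119 of 195 SNORD genes were listed (61.0%, 54.0 to 67.6%), and this interval overlapped that of the SNORA genes. Only 45 of 518 snoRNA genes with other symbols, mostly Rfam family names, were listed (8.69%). The median length of the listed genes was 80 bases for SNORD and 134 bases for SNORA, close to the 82 and 133 bases of those not listed.

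Detection was shallow. The 282 genes together received 771 to 913 counts in a library, which is 0.00617 to 0.00701% of its counts (the 95% Wilson intervals of the lowest and the highest library run from 0.00577 to 0.00661% and from 0.00653 to 0.00751%). A count was present in every library for 197 genes, and 102 genes reached 10 counts over the 6 libraries. Only 15 genes passed the filter on low counts and could be tested in the fit across all genes. The 5 snoRNA genes with the highest mean count over the 6 libraries held 17.01 to 27.27% of the snoRNA counts of a library.

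Per length, the highest levels were those of SNORA8, at 40.2 CPM per kilobase over the 6 libraries, and SNORD58B, at 39.2. SNORD26 in SNHG1 followed at 28.3, SNORD16 at 24.8, SNORA18 at 23.0, SNORD104 at 20.2 and SNORA4 at 16.1 CPM per kilobase. The median over the listed genes was 1.16 for SNORD and 0.709 for SNORA, levels at which the value is set mostly by the length of the gene, because a single count makes up most of them.

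The summed level of C/D genes was nearly the same in both groups. It was 30.6, 31.8 and 30.5 CPM with siRNA-NC and 31.6, 29.9 and 31.3 CPM after si-AC010789.1, that is 31.0 ± 0.747 against 30.9 ± 0.884 CPM (mean ± SD, n = 3 each). The groups overlapped, as they did for H/ACA genes, which summed to 29.7, 28.1 and 23.4 CPM with siRNA-NC and to 28.8, 26.5 and 30.8 CPM after si-AC010789.1. The replicates of siRNA-NC spread more for H/ACA than for C/D genes, and the lowest of the 6 sums was that of siRNA-NC replicate 3, in which SNORA18 was at 1 count. Genes with other symbols summed to 8.89 ± 0.627 and 8.23 ± 1.75 CPM.

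**Figure D1:**
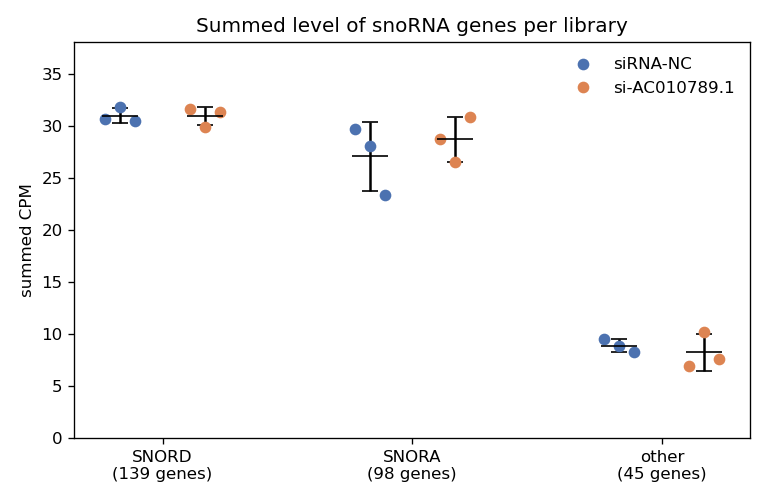
Summed level of snoRNA genes by symbol class, in CPM on a linear axis, for each of the 6 libraries (points) with the group mean and SD (n = 3). The siRNA-NC and si-AC010789.1 points overlap in every class, with C/D means of 31.0 and 30.9 CPM.

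The value most often found was exactly 1. Of the 1692 values of the 282 genes in the 6 libraries, 962 (56.9%) were 1, whereas 172 (10.2%) were 0 and 164 (9.69%) were 2. In 92 genes (32.6%) the count was 1 in each of the 6 libraries. These were 53 of 139 SNORD genes (38.1%), 29 of 98 SNORA genes (29.6%) and 10 of 45 others (22.2%). Their CPM values differ between libraries only through the total counts, so they give no information on the knockdown.

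A total of 6 was nearly always made up in this way. Of 97 snoRNA genes with a total of 6 counts over the libraries, 92 had 1 in each, compared with 8 of 124 protein-coding genes with the same total. Among genes with totals of 3 to 12 counts, 92 of 203 snoRNA genes (45.3%) stood at 1 in every library, against 8 of 1088 protein-coding genes (0.735%) and 12 of 515 processed pseudogenes (2.33%).

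**Figure D2:**
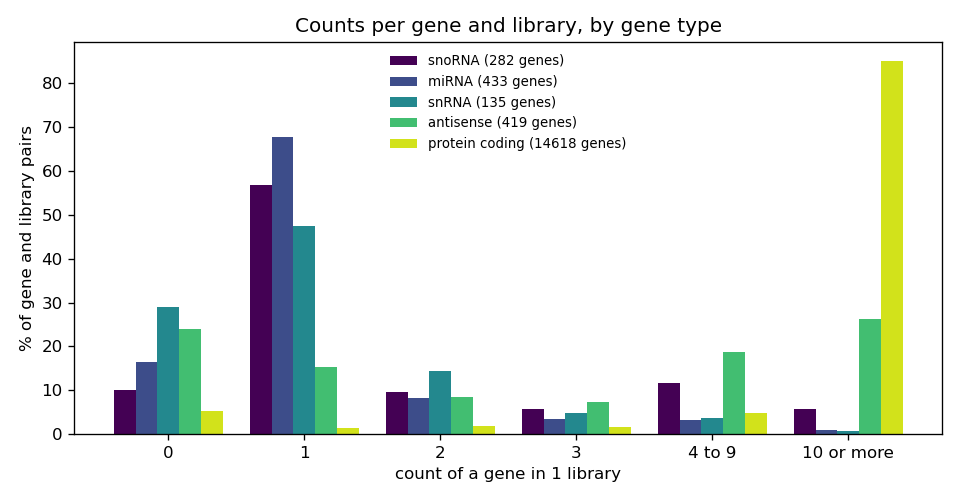
Share of gene and library pairs (percent, linear axis) at each count, for snoRNA genes and 4 other gene types in different colours. In snoRNA genes 56.9% of the values are exactly 1, with far fewer at 0 (10.2%) and 2 (9.69%).

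Members at 1 in every library lay mostly on an annotated exon of another gene. Overlaps with other snoRNA genes are not counted here. A same-strand exon overlap was found in 149 of the 282 genes listed (52.8%), in 85 of 139 SNORD genes and 46 of 98 SNORA genes, and in 88 of the 149 the exon belonged to a retained-intron transcript. Among the genes not listed, 28 of 661 (4.24%) had such an overlap. Of the 92 genes at 1 in every library 81 (88.0%) overlapped an exon, and of the other 190 genes 68 (35.8%) did. Read from the other side, 81 of 149 overlapping genes (54.4%) and 11 of 133 genes without overlap (8.27%) were at 1 throughout. The part that reads of the overlapping transcripts have in these counts was not tested, and the rule by which the authors divided reads among overlapping transcripts is not given in the sources used here.

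None of the 15 testable snoRNA genes passed the test between the groups. In edgeR's quasi-likelihood test across all 13764 genes, 130 genes (0.944%) had an adjusted p under 0.05 (37 higher, 93 lower). Of the 15 snoRNA genes 0 did. None reached an unadjusted p under 0.05, which 2361 of the 13764 genes did. DESeq2 called 0 of the 15 as well, and 522 of all genes. The study's own criteria (unadjusted p under 0.05, log2 fold change beyond 1 in either direction) were met by 107 genes (0.777%) and by 0 of the 15. The adjusted p ranged from 0.470 to 0.991, with 6 genes higher, 9 lower and a median log2 fold change of -0.03 (0.00 over all genes). In every one of the 15 the groups overlapped. Over all tested genes 25.1% had groups that did not.

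**Figure D3:**
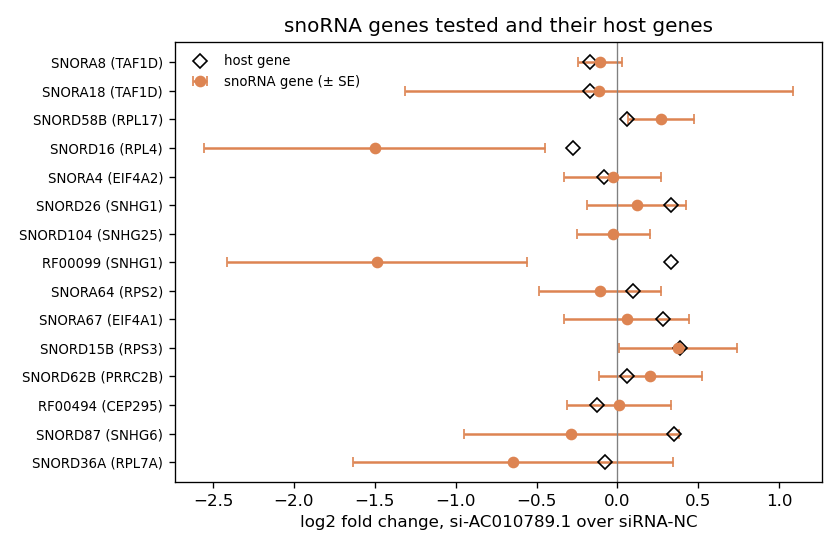
Log2 fold change (si-AC010789.1 over siRNA-NC, edgeR) of each testable snoRNA gene (filled points, bars are standard errors) and of its host gene (open diamonds). The 10 members never at 0 or 1 lie within 0.37 of 0, and bars are long, up to 1.20, only in the 5 that stood at 1 count in some library.

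SNORA8, the member with the most counts, had 68, 76 and 76 counts with siRNA-NC and 58, 75 and 63 counts after si-AC010789.1. The groups overlapped, at 5.81 ± 0.180 and 5.38 ± 0.524 CPM, and its log2 fold change was -0.11 (SE 0.14, edgeR adjusted p = 0.737). SNORD58B, which guides methylation of large-subunit ribosomal RNA, had 26, 33 and 30 counts with siRNA-NC and 30, 31 and 42 after si-AC010789.1. In CPM the first and the third knockdown replicates (2.62 and 3.40) were above every control and the second (2.47) was not, since the highest control reached 2.48, and the log2 fold change was 0.27 (SE 0.20, edgeR adjusted p = 0.554).

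SNORD104 was steady, with 17, 20 and 17 counts with siRNA-NC and 15, 18 and 18 after si-AC010789.1, or 1.43 ± 0.134 and 1.40 ± 0.0800 CPM. Its log2 fold change was -0.03 (SE 0.23). SNORA4 had 33, 21 and 30 against 21, 34 and 25 counts. In CPM both its highest value (2.92) and its lowest (1.58) came from siRNA-NC, and the groups overlapped. SNORD26, one of the C/D snoRNAs of SNHG1, had 18, 32 and 28 against 18, 26 and 37 counts, also with overlapping groups.

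The other steady members had lower counts. SNORA64 in RPS2 ranged from 12 to 24 counts with siRNA-NC and from 10 to 23 after si-AC010789.1. SNORA67 in EIF4A1, RF00494 in CEP295 and SNORD62B in PRRC2B had log2 fold changes of 0.06, 0.01 and 0.20 (SE 0.39, 0.32 and 0.32). SNORD15B in RPS3 had 8, 10 and 20 against 15, 18 and 14 counts, a log2 fold change of 0.37 (SE 0.37), the largest absolute value among the 10 testable members that were never at 0 or 1.

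**Figure D4:**
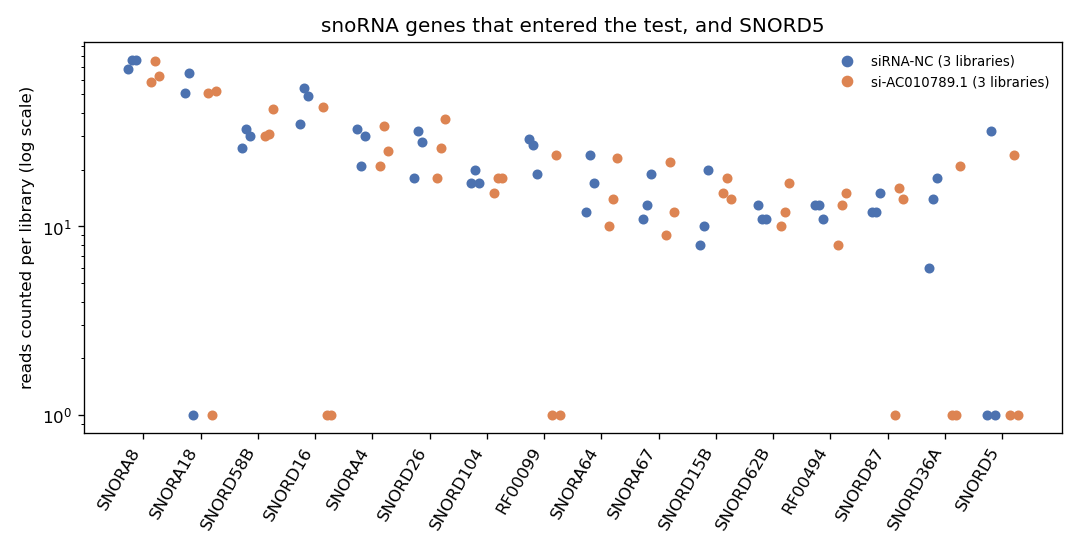
Counts (log axis) of the 15 testable snoRNA genes and SNORD5 in each of the 6 libraries, 1 point a library, with siRNA-NC in blue and si-AC010789.1 in orange. SNORA8 stays between 58 and 76 counts, while SNORA18 and SNORD16 stand either at 35 or more or at exactly 1.

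A second kind of member was either well detected or at the floor. Of 31 snoRNA genes that reached 10 counts in some library, 12 were at 0 or 1 in another. SNORA18 had 51, 65 and 1 counts with siRNA-NC and 51, 1 and 52 after si-AC010789.1, so 1 replicate of each group stood at 1. Its neighbour SNORD5 had 1, 32 and 1 against 1, 24 and 1 counts. SNORA8, in the same host gene, showed no such drop in any library.

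SNORD16, which guides methylation of small-subunit ribosomal RNA, had 35, 54 and 49 counts with siRNA-NC but 43, 1 and 1 after si-AC010789.1. Its mean was 3.61 ± 0.486 against 1.30 ± 2.12 CPM, and the log2 fold change of -1.50 (SE 1.05, edgeR adjusted p = 0.520) rested on si-AC010789.1 replicates 2 and 3. Without si-AC010789.1 replicate 1 it became -5.33 (adjusted p = 0.0229), the only snoRNA gene called in the 6 fits that each left out 1 library. RF00099 (ENSG00000278527.1), also in SNHG1 and given the symbol SNORD22 in a newer table of gene names, had 29, 27 and 19 against 1, 24 and 1 counts, with a log2 fold change of -1.49 (SE 0.93, edgeR adjusted p = 0.470). SNORD36A in RPL7A had 6, 14 and 18 against 1, 1 and 21, and SNORD87 in SNHG6 had 12, 12 and 15 against 1, 16 and 14 counts. In all of these the groups overlapped, and the standard errors of the 5 testable members of this kind were 0.67 to 1.20, against 0.14 to 0.39 in the other 10.

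SNORD16, RF00099, SNORD36A, SNORD87 and SNORD88B stood at 1 only in si-AC010789.1 libraries. The other members of the 12 were at 0 or 1 in libraries of both groups, and none was so only in siRNA-NC. SNORD88B had 7, 4 and 5 counts with siRNA-NC and 11, 19 and 1 after si-AC010789.1, SNORD102 had 1, 1 and 5 against 8, 1 and 13, and SNORD55 had 10, 1 and 1 against 1, 1 and 1. SNORA58B, SNORA65 and SNORA50A completed the 12. Of the 12 genes 10 overlapped an exon of a gene other than a snoRNA gene, as did 19 of the 31. With overlapping snoRNA genes counted as well, 11 of the 12 and 20 of the 31 overlapped another gene.

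For SNORD16 an overlapping transcript of the host gene moved with the drop. The retained-intron transcript ENST00000561775 of RPL4, which covers SNORD16, had 0, 0 and 0 counts with siRNA-NC and 0, 1490 and 1378 after si-AC010789.1, thus it was present exactly in both libraries in which SNORD16 stood at 1. The RPL4 transcript ENST00000567229, which also covers SNORD16, had 6333, 5563 and 5635 against 3756, 1080 and 1951 counts. The gene sum of RPL4 was steadier, with 16781, 18056 and 16604 against 13536, 14148 and 13156 counts, a log2 fold change of -0.28 (edgeR adjusted p = 0.145). Whether SNORD16 itself was less abundant in those libraries or its reads were assigned to the longer transcript was not tested.

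A matching pattern was seen at SNORA58B. It had 8, 1 and 1 counts with siRNA-NC against 1, 6 and 10 after si-AC010789.1, and the overlapping processed transcript ENST00000475373 of UBAP2L had 72, 121 and 144 against 137, 14 and 17 counts. The 3 libraries in which SNORA58B stood at 1 were thus the 3 in which this transcript was highest, while the gene sum of UBAP2L stayed between 5257 and 6106 counts.

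**Figure D5:**
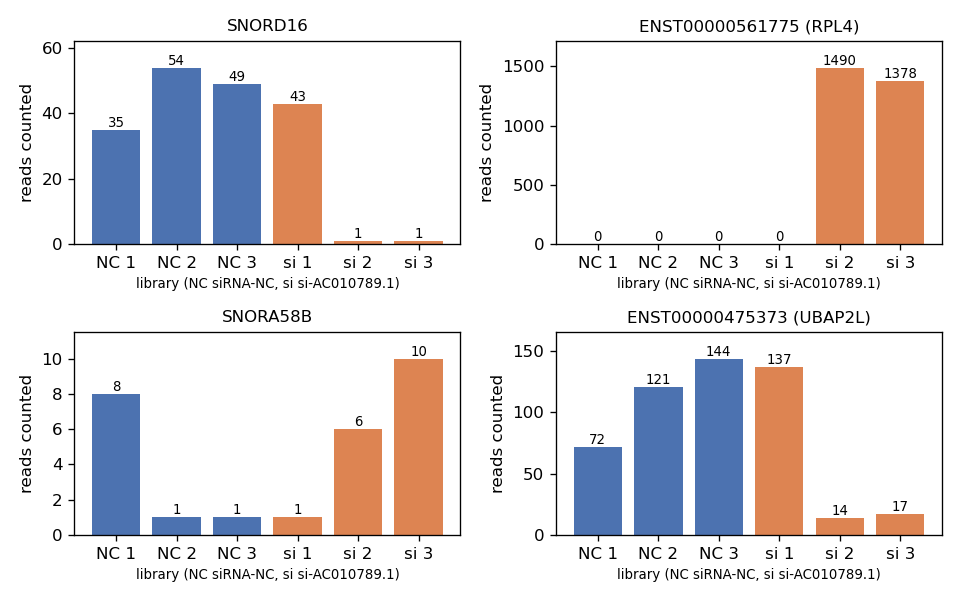
Counts (linear axes, bars from 0) in each of the 6 libraries for SNORD16 and SNORA58B (left) and for a listed transcript of the host gene whose exon overlaps each (right), with siRNA-NC in blue and si-AC010789.1 in orange. SNORD16 stands at 1 where ENST00000561775 has 1490 and 1378 counts, and SNORA58B at 1 where ENST00000475373 has 121, 144 and 137 counts.

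At SNORA18 the TAF1D transcript ENST00000525928 had 37, 59 and 87 counts with siRNA-NC against 50, 60 and 26, and it was highest in the 2 libraries in which SNORA18 stood at 1 (87 and 60 counts), though by 1 count over the next. The other overlapping transcripts of TAF1D were not highest there. ENST00000526015 had 60 and 51 counts in those libraries and 38 to 110 in the others. ENST00000530769 had 75 and 90 counts there and 64 to 94 in the others. SNORA50A is the symbol of 2 listed genes at the same place in CNOT1. ENSG00000206952.3 had 0, 0 and 4 against 10, 0 and 0 counts, and ENSG00000281910.1 had 4, 5 and 1 against 1, 4 and 3, so the latter stood at 1 in the libraries in which the former was counted.

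At other switching members the order was different. The TAF1D transcript ENST00000530769, which covers SNORD5, had 69, 94 and 75 against 64, 90 and 76 counts and was highest where SNORD5 was high. ENST00000529794, which also covers SNORD5, had 140 and 127 counts there and 98 to 152 in the other libraries. The RPL7A transcript ENST00000463740, which covers SNORD36A, had 2124 and 2338 counts where SNORD36A was at 1 and 1816 to 2979 in the other libraries. The SNHG1 transcript ENST00000541416, which covers RF00099, had 10 and 26 counts where RF00099 was at 1, its lowest and its highest value. The overlapping transcript ENST00000596655 had 160 counts where SNORD88B was at 1 and 123 to 165 in the other libraries. ENST00000485756 had 3 to 9 counts at SNORD102, and ENST00000485390 had 669 to 1227 at SNORD55. SNORD87 and SNORA65 overlap no listed transcript of another gene. The part of the overlapping transcripts in these patterns was not tested.

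Below the filter were 267 members, and these have no test in the fit. In 14 of them the groups did not overlap, 13 higher and 1 lower after si-AC010789.1, while 8.67% of all genes below the filter had groups that did not. Most of the 14 were differences of 1 or a few counts, and 12 had a mean under 5 counts, such as SNORD92 with 0, 0 and 0 against 1, 1 and 1. The 14 are 5.24% of the 267 members.

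SNORA22 and SNORA79B were the members with a mean of at least 5 counts among them. SNORA22 had 3, 2 and 4 counts with siRNA-NC and 10, 5 and 12 after si-AC010789.1, or 0.239 ± 0.0781 and 0.747 ± 0.305 CPM. SNORA79B, in CCNB1IP1, had 3, 4 and 2 against 6, 9 and 7 counts, or 0.239 ± 0.0791 and 0.602 ± 0.102 CPM. The lowest knockdown library was above the highest control library for both. SNORA79B was named because its groups did not overlap, and SNORA22 for the same reason and for its level. No test of the 2 genes is therefore given here, and neither entered the main fit.

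H/ACA genes that overlap no exon of a gene other than a snoRNA gene also had higher sums after knockdown. The 52 such SNORA genes summed to 87, 103 and 94 counts with siRNA-NC and to 118, 113 and 134 after si-AC010789.1, or 7.50 ± 0.397 and 10.0 ± 0.934 CPM, and the groups did not overlap. Without SNORA22 and SNORA79B, 50 genes gave 7.02 ± 0.378 and 8.69 ± 0.721 CPM. The 54 C/D genes without overlap gave 10.3 ± 1.07 and 11.5 ± 0.802 CPM, and there the groups overlapped, as they did for the 46 SNORA genes that do overlap an exon (19.6 ± 2.93 and 18.6 ± 1.26 CPM). They also overlapped for the 85 C/D genes on an exon and for genes with other symbols, on an exon or not. The H/ACA genes without exon overlap were thus the only such set with separate groups. Of single tested genes, 25.1% had separate groups. No test was made of these sums.

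The listed snoRNAs that act in cleavage of the ribosomal RNA precursor had at most 16 counts in a library, and several stood at the floor. RF00099, given the symbol SNORD22 in the newer table of gene names, is not in this list. It had 29, 27 and 19 against 1, 24 and 1 counts. SNORD118 (U8) had 1 count in each library, as had SNORD14B and the gene listed as SNORD22 (ENSG00000277194.1), whereas SNORD3B-1, a copy of U3, had 7, 3 and 12 counts with siRNA-NC and 4, 16 and 2 after si-AC010789.1. SNORD14E had 4, 8 and 5 against 9, 12 and 6 counts, and SNORD14A had 1, 2 and 4 against 2, 4 and 7. For all of these the groups overlapped. Of the 15 annotated genes of this list 11 were listed. SNORD3A, SNORA73A and SNORA73B were not among these 11, so no values are given for them here.

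The imprinted C/D cluster on chromosome 15 was listed in part. Of its 83 annotated genes 20 were listed, 16 of 30 SNORD116 copies and 0 of 48 SNORD115 copies, and no copy exceeded 4 counts in any library. The 20 genes summed to 19, 23 and 25 counts with siRNA-NC and to 20, 24 and 23 after si-AC010789.1, or 1.76 ± 0.0990 and 1.84 ± 0.0870 CPM, and the groups overlapped.

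Some members share sequence, and their counts are uncertain. SNORD62A and SNORD62B, both in PRRC2B, are identical over 86 bases, and yet SNORD62B had 13, 11 and 11 against 10, 12 and 17 counts, while SNORD62A had 0, 1 and 2 against 1, 0 and 1. SNORD58A and SNORD58B share an unbroken run of 22 bases (tttcttaggacacctttggatt), and SNORD15A and SNORD15B share one of 23. In all, 17 members overlap another snoRNA gene.

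Host genes were about as often higher as lower after knockdown. Of the 282 members 272 lie in a host gene, 141 hosts in all, 60 of which hold more than 1 listed member, with 20 members in SNHG14, 8 in TAF1D and 7 in SNHG1. Of 122 hosts tested, 58 were higher and 64 lower, with a median log2 fold change of -0.01, and 0 were called by edgeR. An unadjusted edgeR p under 0.05 was found for 21 hosts, and for 2361 of all 13764 genes tested. DESeq2 called 4 hosts, NDC1 (higher) and ATP5F1B, UBAP2 and RNF149 (lower), and 522 of all genes tested.

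Of 14 testable members whose host was tested as well, 10 had the same sign as the host. The largest absolute log2 fold change of these hosts was 0.39 (RPS3, edgeR adjusted p = 0.616). TAF1D had a log2 fold change of -0.17 (edgeR adjusted p = 0.177), SNHG1 0.33 (0.743), RPL17 0.06 (0.852) and EIF4A2 -0.08 (0.497). The counts of a member were also set against those of its host, a separate gene whose counts do not include the member. This ratio differed widely, from 31.7% for SNORD26 in SNHG1, through 4.204% for SNORD58B and 3.89% for SNORA8, to 0.198% for SNORD16 and 0.126% for SNORD36A.

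Among 36 non-coding host genes, 20 were listed and 13 tested, of which 9 were higher and 4 lower, with 0 called by edgeR and 0 by DESeq2. Of the 13, 1 had an unadjusted edgeR p under 0.05, against 2361 of all 13764 genes tested. That gene was SNHG20, at 0.327 ± 0.232 CPM with siRNA-NC and 1.10 ± 0.128 CPM after si-AC010789.1 (log2 fold change 1.75, edgeR adjusted p = 0.183), which met the study's criteria. GAS5, a host of many C/D snoRNAs, was at 12.8 ± 4.10 and 10.7 ± 2.85 CPM (edgeR adjusted p = 0.711). None of the listed members was assigned to SNHG20 or GAS5 as its host.

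Genes for the proteins of the snoRNA particles were all listed. Of 27 genes for core proteins, assembly factors and processing enzymes, 16 were higher and 11 lower, with a median log2 fold change of 0.02. The calls were 0 with edgeR and 1 with DESeq2, against 130 and 522 of all 13764 genes tested. An unadjusted edgeR p under 0.05 was found for 5 of the 27, against 2361 of all genes tested. All 4 C/D core proteins were higher, none past the test. Fibrillarin (FBL), the methyltransferase, was at 198 ± 7.13 and 206 ± 2.97 CPM (log2 fold change 0.05, edgeR adjusted p = 0.594), and NOP56 at 105 ± 2.67 and 109 ± 0.565 CPM. NOP58 was at 112 ± 12.9 and 117 ± 5.21 CPM. SNU13, which binds the C/D box motif, was at 64.4 ± 17.1 and 86.2 ± 18.2 CPM (log2 fold change 0.42, edgeR adjusted p = 0.392).

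Among the H/ACA core proteins, dyskerin (DKC1), the pseudouridine synthase, was at 170 ± 10.5 and 171 ± 0.267 CPM (log2 fold change 0.01, edgeR adjusted p = 0.957). NHP2 was at 58.9 ± 1.28 and 70.4 ± 2.34 CPM (a log2 difference of 0.26, edgeR adjusted p = 0.104) and GAR1 at 32.8 ± 0.835 and 37.2 ± 2.39 CPM, while NOP10 was at 49.7 ± 1.15 and 45.9 ± 3.90 CPM. NOLC1, a nucleolar phosphoprotein that binds both kinds of particle, stood nearest to the threshold, at 284 ± 8.49 and 348 ± 11.5 CPM (log2 fold change 0.29, SE 0.05, edgeR adjusted p = 0.0501), and it was the gene that DESeq2 called (adjusted p = 7.24e-04). XRN2, an exonuclease that trims snoRNA precursors, was at 176 ± 9.74 and 154 ± 1.12 CPM (log2 fold change -0.19, edgeR adjusted p = 0.146).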

How the data were processed

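RNA of HCT116 cells given si-AC010789.1 or siRNA-NC was sequenced, with 3 libraries per group. The authors deposited whole-number counts, 1 row per Ensembl transcript, that were not normalized. The submitters' processing notes name CASAVA 1.8, TopHat2 2.0.6 and the builds GRCh38 and mm10. The counting program and its annotation are not given in the sources used here.

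GENCODE v29 (GRCh38) assigned transcripts to genes, whose counts were added up. The 83 transcripts without a match were left out, and 99.907 to 99.941% of the counts of a library were kept. The snoRNA genes and the gene lists, written by hand, were chosen with earlier results of these data known. All genes were tested together with edgeR 4.0.16 in R 4.3.3 (filterByExpr at its minimum count 10 and total 15, TMM scaling, quasi-likelihood test, Benjamini-Hochberg adjustment). The p-values measure the spread between these 3 replicates per group. The standard error was taken as the absolute log2 fold change divided by the square root of F. The named snoRNA genes were the 10 SNORD and 10 SNORA genes with the highest mean level, those tested or called, those with the largest change among genes with separate groups and a mean of at least 5 counts, U3, U8, U17, hosts and core proteins. Other named genes were chosen after their values were seen. Alternatives were DESeq2 1.42.0, other scalings and filters, the replicate number as a block and leaving out each library. The fit was tested on simulated data. Levels are CPM. Python 3.11.15, pandas 2.3.3, numpy 2.4.6, scipy 1.17.1 and matplotlib 3.10.9 were used. The sequence of 1 member is not reported here.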

Additional observations from a re-analysis of the deposited data

How the results depend on the processing

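The number of snoRNA genes called was 0, or 0 to 1 when a library was left out (SNORD16 without si-AC010789.1 replicate 1), and at the study's criteria 0, or 0 to 2 with a library left out and 4 without a filter on low counts (SNORA22, SNORA79B, RF00272 and SNORD92). Over all genes the 130 calls became 522 with DESeq2, 69 without the filter, 12 to 37 with a library left out and 0 with the replicate block, and the 107 genes at the study's criteria became 332 without the filter and 149 to 169 with a library left out. Deviations from the group mean were weakly correlated between libraries with the same replicate number (r 0.112, 0.011 and 0.017). With 3 libraries per group these values cannot show whether the replicate numbers pair the samples. For hosts the 0 calls became 4 with DESeq2 and 0 to 1 with a library left out, and for particle proteins 1 with DESeq2 and 1 with a filter at a mean of 1 CPM. Leaving out a library turned the direction of 9 of the 15 tested snoRNA genes, whose log2 fold changes spanned -0.70 to 0.46 for SNORA18, -0.23 to 0.20 for SNORA4, -0.16 to 0.31 for SNORD26, -0.1046 to 0.0188 for SNORD104, -0.47 to 0.13 for SNORA64, -0.35 to 0.27 for SNORA67, -0.0218 to 0.37 for SNORD62B, -0.17 to 0.20 for RF00494 (-0.0015 without the filter) and -0.72 to 0.22 for SNORD87. The log2 ratio of summed levels rose from -0.0027 to 0.16 (SNORD) and from 0.08 to 0.42 (SNORA) without genes on another gene's exon. Detection fell to 16.6% of SNORD and 27.2% of SNORA genes at 10 counts in total, and to 38.1% and 45.6% with a count in every library. It was 61.0% of SNORD genes without the chromosome 15 cluster, an alternative chosen after seeing the data. The cause of these shifts was not tested.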

Other observations

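The count of 1 in every library was also frequent in other short RNA genes. Among genes with totals of 3 to 12 counts it held for 152 of 390 microRNA genes (39.0%), 39 of 139 genes of the type misc_RNA (28.1%), 2 of 8 small Cajal body RNA genes and 9 of 125 small nuclear RNA genes (7.20%), against 5 of 156 antisense genes (3.21%). Exactly 1 made up 67.7% of all values of the 433 microRNA genes and 1.43% of those of protein-coding genes.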
